A study of Mus musculus with 30 samples.

Results

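The 9 genes described here are used to recognise dendritic cells, and were followed in blood mononuclear cells of mice after lung injury by oleic acid (OA). They are Irf8, Itgax, Clec10a, Flt3, Siglech, Zbtb46, Xcr1, Batf3 and Cd209a. They were chosen by name, through every non-control probe that carries a member's current or older symbol, which gave 15 probes for the 9 genes among 55681 probes on the array. Testing was limited to probes that Agilent's software placed well above background on 3 arrays or more, and 11 of the 15 probes and 8 of the 9 genes met this, among 25167 genes or unnamed transcripts tested. Xcr1 did not pass. All kept values are log2 levels relative to the 75th percentile of the same array, so that 0 is the signal of that percentile.

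Female C57BL/6 mice aged 6 weeks were anaesthetised with xylazine and ketamine and received 200 µl into the tail vein. OA was given at 1.2 µl per g of body weight, and the controls received physiological serum. Blood was taken at 1, 1.5, 3, 4, 18 and 24 h, mononuclear cells were isolated on a Ficoll gradient, and their total RNA was hybridised to 1-colour Agilent arrays. The OA groups held 3, 3, 3, 2, 3 and 3 arrays at these times and the serum groups held 3, 3, 2, 1, 2 and 2. No untreated or uninjected mouse was analysed here, so each serum value is that of an anaesthetised and injected animal at the same hour. The design text counts 30 mice, and each array was taken as 1 animal.

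Dendritic cells sample their surroundings and present antigen to T cells, and they are a small share of the mononuclear cells of blood. Conventional dendritic cells of type 1 depend on the transcription factors Irf8 and Batf3 and carry the chemokine receptor Xcr1, while those of type 2 carry lectins such as Clec10a and Cd209a. Zbtb46 is a transcription factor of the conventional lineage, Flt3 is the cytokine receptor through which dendritic cells develop, and Itgax encodes the integrin CD11c. Siglech is a receptor of plasmacytoid dendritic cells, the type that makes much type I interferon. Several of these genes are shared: Irf8 is also made by B cells and monocytes, Itgax by monocytes and natural killer cells, and Cd209a and Clec10a by monocyte-derived cells. In RNA of mixed cells, fewer cells of a type and less RNA per cell cannot be told apart.

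The probes themselves decide what is measured for several members, so stretches of 30 of their 60 bases are shown 5′ to 3′, in the strand of the transcript. Capitals mark words of 14 bases that recur in 10 or more of 32851 mouse promoter windows, a sign of repeated sequence. The coordinates are those of the array design in mm9. The first 3 lines are the Siglech probes, which did not move together, and the next 2 the Zbtb46 probes, of which the second was never well above background. The last 3 are the probes of the genes with the largest differences between times.
Siglech, probe A_55_P2141013, chr7:63034088-63034147, bases 31 to 60: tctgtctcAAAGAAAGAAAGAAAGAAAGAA
Siglech, probe A_55_P2165790, chr7:63033826-63033885, bases 9 to 38: taaattcccttgcagagacatcctccaaag
Siglech, probe A_55_P2141008, chr7:63028608-63028667, bases 28 to 57: cttccctggtggattcctcccaacatttct
Zbtb46, probe A_52_P241508, chr2:181146404-181146463, bases 31 to 60: agtacctgcccaaaggtgcccactcactgt
Zbtb46, probe A_52_P214042, chr2:181145799-181145858, bases 31 to 60: atgctacatttaagaccttagtgtgtctag
Clec10a, probe A_55_P2045055, chr11:69984254-69984313, bases 3 to 32: gaaatctgtgatattttgtacagtgtgcag
Cd209a, probe A_55_P2018061, chr8:3743481-3743540, bases 31 to 60: cccaaattttttggaggatttataattttt
Batf3, probe A_51_P419286, chr1:192932528-192932587, bases 31 to 60: cacactcaggagtttccctacacacctgtg

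The Siglech probe A_55_P2141013 ends in a simple repeat of the letters AAAG, and words of it recur in 97 promoter windows, more than for 99.3% of all probes. The median over all probes was 4 windows. The other Siglech probes shared words with 3 and 4 windows, the Zbtb46 probes with 2 each, the Clec10a probe with 2, the Cd209a probe with 1 and the Batf3 probe with 0. Of the remaining probes, the second Cd209a probe (A_51_P133884) shared words with 16 windows and the others with 2 to 8.

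Of the 15 probes, 4 stood well above background on all 30 arrays: those of Irf8 and Itgax, 1 of Zbtb46 and the repeat-bearing 1 of Siglech. The main probes of Flt3, Cd209a, Batf3 and Clec10a did so on 29, 28, 27 and 22 arrays. The second Zbtb46 probe did so on 0 arrays, the second Cd209a probe and a further Flt3 probe on 1 each, another Flt3 probe on 3 and another Siglech probe on 4. Xcr1, the defining receptor of type 1 conventional dendritic cells, stood above background on 1 array, OA replicate 2 at 4 h, with a level of -1.84 there and of -5.53 to -2.57 on the other 29 arrays. Its expression at the other times and treatments was therefore not detectable with this probe.

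In all, 3 arrays stood apart from the rest, with a median correlation below 0.9 with the other arrays: serum replicate 1 at 24 h (0.797), OA replicate 2 at 4 h (0.835) and serum replicate 3 at 1.5 h (0.885). The signal of 16181 probes for intergenic RNA, given as their mean log2 level minus that of the probes detected on all arrays, was highest on the first 2 of these (-3.48 and -3.72), and lay between -6.24 and -4.68 on the other 28. The share of probes well above background ran from 34.5% to 64.5% and the 75th percentile signal from 37.7 to 136. The arrays lay on 5 slides. The fifth slide, scanned on another day, held 5 OA arrays and 0 serum arrays. Cell markers of the preparation were measured in every group, with mean log2 levels of 2.69 to 4.52 for 10 B cell genes, 1.42 to 3.47 for 9 genes of classical monocytes, 3.95 to 5.39 for 10 neutrophil genes and 5.30 to 7.02 for 6 erythroid genes.

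**Figure D1:**
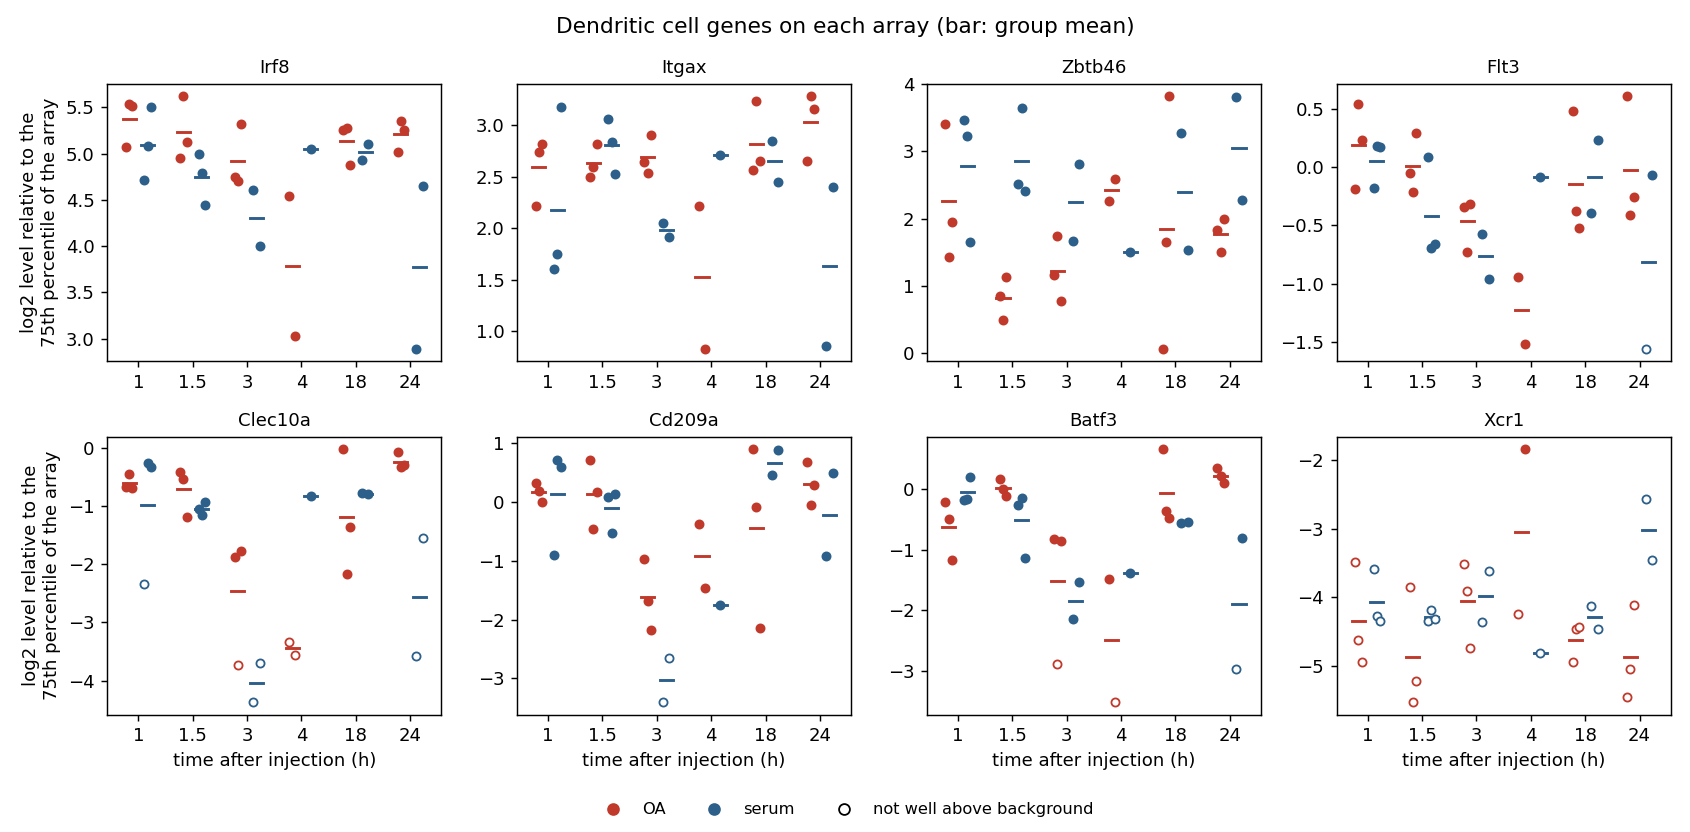
Log2 level of 8 dendritic cell genes on each of the 30 arrays (vertical axis, relative to the 75th percentile of the array) at each time after injection (horizontal axis, h), with OA to the left of serum at each time and a bar at each group mean. Open circles are not well above background; Clec10a, Cd209a and Batf3 lie low at 3 and 4 h, Xcr1 has 1 filled circle, and serum replicate 1 at 24 h is low for Irf8, Itgax, Clec10a, Flt3 and Batf3.

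Cd209a and Clec10a, the type 2 lectin genes, were lower at 3 and 4 h than at 1 and 1.5 h when OA and serum arrays were pooled, and Cd209a was higher again at 18 and 24 h. Cd209a differed by -1.92 on the log2 scale at 3 and 4 h against 1 and 1.5 h (SE 0.35, adjusted p = 0.0256 by limma with Benjamini-Hochberg adjustment) and Clec10a by -1.86 (SE 0.35, adjusted p = 0.0256). The comparison was added after the values had been seen, with the 4 groups on each side weighted equally. Of 25155 genes tested, 0.191% fell between these times and 2 of 8 members did.

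Cd209a encodes a C-type lectin of the DC-SIGN family. At 1 h its level was 0.32, 0.19 and -0.01 in OA mice and -0.91, 0.71 and 0.59 in serum mice. At 1.5 h it was 0.71, -0.46 and 0.17 in OA mice and 0.08, -0.53 and 0.14 in serum mice. The groups overlapped at both times. At 3 h it was -0.97, -1.69 and -2.18 in OA mice, against -3.40 and -2.66 in serum mice, where both arrays were not well above background. The OA arrays were the higher ones at 3 h. Their mean was at least 2.51-fold above that background, with an unadjusted p of 0.0445 and an adjusted p of 0.635 by limma. The nearest arrays were -2.18 (OA) and -2.66 (serum). At 4 h the levels were -0.38 and -1.47 in OA mice and -1.76 in the serum mouse. So 7 of the 8 arrays at 3 and 4 h lay below the lowest array of the first 2 times, and OA replicate 1 at 4 h was the exception.

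On the next day Cd209a was 0.89, -0.08 and -2.14 in OA mice and 0.45 and 0.88 in serum mice at 18 h. It was 0.67, -0.06 and 0.28 in OA mice and -0.92 and 0.49 in serum mice at 24 h. OA replicate 3 at 18 h was alone among these 10 arrays in lying below -1. Against 3 and 4 h the levels at 18 and 24 h were higher by 1.91 (SE 0.36, adjusted p = 0.0135 by limma), a change that 1 of 8 members and 0.481% of 25154 genes made in this direction. It passed the threshold in all 42 alternative analyses that gave a value, with adjusted p from 0.000933 to 0.0473. The difference ran from 0.86 to 2.12 in these alternatives, which reuse the same arrays. This comparison too was added after the values had been seen. The highest group mean of Cd209a was that of serum at 18 h (0.66 ± 0.30, SD, n = 2) and the lowest that of serum at 3 h (-3.03 ± 0.52, SD, n = 2). In 10 of the 11 steps down the order of group means, neighbours differed by less than the larger of their SDs, and the largest gap (1.27) separated serum at 3 h from all others. Sorting the means makes gaps between neighbours small, so such counts, here and for other members, do not show that groups are alike. The serum group at 4 h has no SD, and the SD of its neighbour was used.

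Clec10a encodes the galactose-binding lectin MGL1. At 1 h its level was -0.66, -0.45 and -0.68 in OA mice and -2.34, -0.26 and -0.32 in serum mice, and at 1.5 h it was -0.40, -0.53 and -1.19 in OA mice and -1.05, -1.15 and -0.93 in serum mice. The groups overlapped, and 1 serum array at 1 h was not well above background. At 3 h it was -1.87, -3.74 and -1.77 in OA mice and -4.37 and -3.70 in serum mice. At 4 h it was -3.33 and -3.56 in OA mice against -0.82 in the serum mouse. Both serum arrays at 3 h, OA replicate 2 at 3 h and both OA arrays at 4 h were not well above background, so the low values there are bounds, while the single serum array at 4 h showed no such fall.

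At 18 h Clec10a was -0.02, -2.17 and -1.35 in OA mice and -0.77 and -0.79 in serum mice. The later values against 3 and 4 h differed by 1.5 (SE 0.36, adjusted p = 0.053 by limma), which missed the threshold. In 7 of 11 steps neighbouring group means differed by less than the larger SD, and the largest gap (1.28) set the groups of OA at 3 h, serum at 24 h, OA at 4 h and serum at 3 h below the other 8. Treatment differences at these hours ran both ways, rested on few arrays and did not pass. At 3 h the mean of the OA arrays was at least 1.63-fold higher (unadjusted p = 0.0267, adjusted p = 0.62 by limma), with overlap. At 4 h the mean of the OA arrays lay at least 6.17-fold below the serum array (unadjusted p = 0.00749, adjusted p = 0.428 by limma).

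Batf3, the transcription factor required for type 1 conventional dendritic cells, also had low values at 3 and 4 h. Its level was -0.22, -0.49 and -1.17 in OA mice and -0.19, -0.16 and 0.19 in serum mice at 1 h. It was 0.17, 0.00 and -0.12 in OA mice and -0.26, -0.15 and -1.13 in serum mice at 1.5 h. All OA arrays were below all serum arrays at 1 h, as for 8.21% of genes, and above them at 1.5 h, as for 18.5%. At 3 h it was -0.83, -2.88 and -0.85 in OA mice and -2.15 and -1.54 in serum mice, and at 4 h it was -1.48 and -3.51 in OA mice and -1.38 in the serum mouse. The difference between 3 and 4 h and the first 2 times was -1.52 (SE 0.33, adjusted p = 0.0588 by limma). At 18 h it was 0.65, -0.37 and -0.48 in OA mice and -0.56 and -0.54 in serum mice, and the difference at 18 and 24 h against 3 and 4 h was 1.24 (SE 0.35, adjusted p = 0.113 by limma). Neither difference of Batf3 passed the threshold.

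The other members gave smaller differences between these times. The fitted differences at 3 and 4 h against 1 and 1.5 h were -0.60 for Irf8 (adjusted p = 0.286), -0.60 for Flt3 (0.262), -0.33 for Itgax (0.683), -0.34 for Zbtb46 (0.849) and 0.15 for Siglech (0.898), all by limma. Across the 30 arrays Clec10a and Batf3 correlated at r = 0.82, Clec10a and Cd209a at 0.74, and Batf3 and Cd209a at 0.61, as a description of arrays that share time and scaling.

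**Figure D2:**
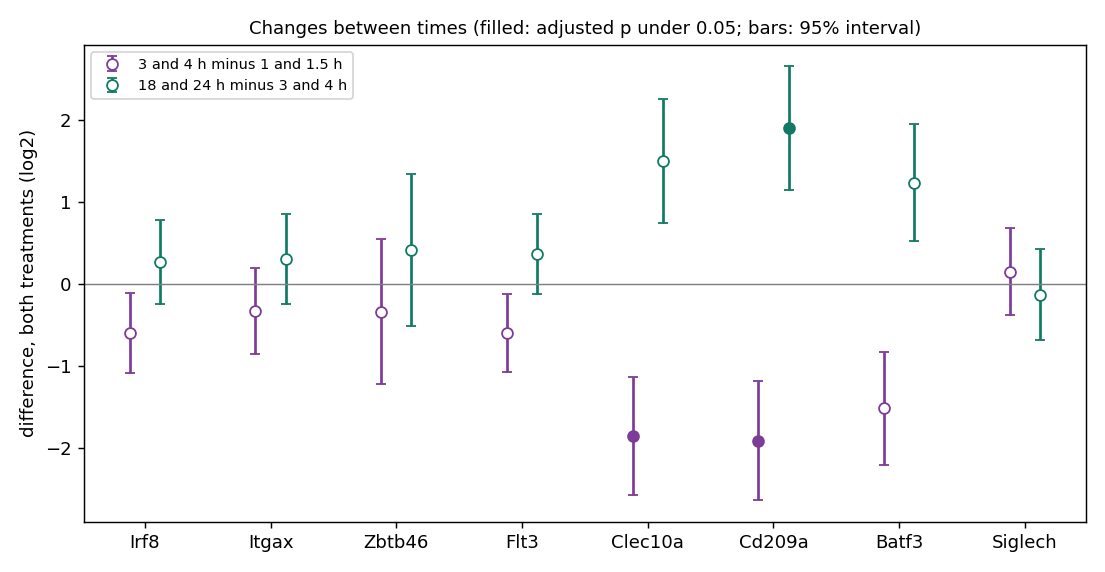
Difference between times over both treatments (vertical axis, log2) for 8 genes (horizontal axis), as 3 and 4 h minus 1 and 1.5 h and as 18 and 24 h minus 3 and 4 h, with 95% intervals. Filled points passed an adjusted p of 0.05: Clec10a (-1.86) and Cd209a (-1.92) for the first difference and Cd209a (1.91) for the second.

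The calls at 3 and 4 h depended on single arrays and on background handling. They were lost without serum replicate 2 at 3 h (adjusted p = 0.0787 for Clec10a and 0.0726 for Cd209a) and without OA replicate 2 at 4 h (0.0844 for both), by limma, with differences of -2.01 to -1.78. Both were also lost without the 3 arrays that stood apart (0.0585 for Clec10a and 0.071 for Cd209a). With normexp background correction, which lifts dim values, the differences were -0.41 for Clec10a (adjusted p = 0.184) and -0.77 for Cd209a (0.0618).

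The genes most like these 3 over the 30 arrays were Ccr2 for Clec10a (r = 0.928, the chemokine receptor of classical monocytes), then Tmem176b (0.874) and Plxnb2 (0.85). For Batf3 they were Ifi30 (0.897, a lysosomal reductase of antigen processing), Ptpro (0.894) and Camkk2 (0.875), and for Cd209a Srsf1 (0.796), Pigu (0.795) and Nagk (0.772). Classical monocyte genes as a list had no member that fell or rose at 3 and 4 h against the first 2 times among 9 measured, with a median difference of -0.10.

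Among further genes of dendritic cells, Kmo of the general conventional list fell at 3 and 4 h (-1.23, SE 0.22, adjusted p = 0.0256), as did Bcl11a, a transcription factor of plasmacytoid and B cell development (-1.34, SE 0.26, adjusted p = 0.0275), and Cd40, the costimulatory receptor (-1.21, SE 0.22, adjusted p = 0.0256), all by limma. The list medians were -0.34 for 7 general conventional genes with 1 fall, -0.02 for 10 type 1 genes with 0, -0.38 for 9 type 2 genes with 2 falls, and -0.21 for 16 plasmacytoid genes with 0. The median over all genes was 0.05, and 0.191% of genes fell. Bcl11a belongs to a list of dendritic cell development genes. The group means of that list were 1.47 to 2.75 at 3 and 4 h and 2.25 to 2.71 at 1 and 1.5 h. Cd40 belongs to a list of maturation and migration genes, with group means of 0.1 to 0.74 against 0.45 to 0.82. The B cell genes Ms4a1 (-1.39, SE 0.26, adjusted p = 0.0256) and Cr2 (-1.34, SE 0.19, adjusted p = 0.00529) fell at the same hours, 2 of 10 measured, and the median of the B cell list was -0.81. Mean levels of the 10 B cell genes were 3.32 to 3.89 on the OA arrays and 2.47 to 4.01 on the serum arrays at 3 h, against 4.36 to 4.61 and 3.84 to 4.30 at 1 h. Bcl11a and Cd40 are also expressed by B cells. The part of B cells in the changes of Cd209a and Clec10a was not tested.

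Kmo (1.37, SE 0.22, adjusted p = 0.00458), Bcl11a (1.25, SE 0.27, adjusted p = 0.0241) and Cd40 (1.40, SE 0.23, adjusted p = 0.00473) also rose at 18 and 24 h against 3 and 4 h, as did Ms4a1 (1.32, adjusted p = 0.0189) and Cr2 (1.87, adjusted p = 2.76e-05), by limma. At these hours 2 natural killer cell genes rose, Ncr1 (1.42, adjusted p = 0.00587) and Klre1 (1.85, adjusted p = 0.00749), and the monocyte gene Cd14 fell by 1.92 (adjusted p = 0.0189). Over all genes 0.481% rose. Group means of the lists follow for 3 and 4 h, then 18 and 24 h. They were 2.24 to 2.52 and 2.45 to 3.3 for natural killer cells, and 1.54 to 3.47 and 1.42 to 3.1 for classical monocytes. For B cells they were 2.69 to 3.64 and 3.18 to 4.41, and for general conventional genes 1.44 to 1.79 and 1.9 to 2.03. The development list had 1.47 to 2.75 and 1.31 to 2.53, and the maturation list 0.1 to 0.74 and -0.14 to 0.57. Shares of cells were not tested.

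The promoters of Cd209a and Batf3 are shown because these members, with Clec10a, had the largest differences between times. Sequences run 5′ to 3′ in the strand of the gene from 250 bases before to 50 after the annotated start, from RefSeq on GRCm38.p6, and no such entry was used for Clec10a. Capitals mark matches to GAGGAA (bound by PU.1) or TGANTCA (bound by AP-1) on either strand.
Cd209a, chr8:3748935-3749234, minus strand: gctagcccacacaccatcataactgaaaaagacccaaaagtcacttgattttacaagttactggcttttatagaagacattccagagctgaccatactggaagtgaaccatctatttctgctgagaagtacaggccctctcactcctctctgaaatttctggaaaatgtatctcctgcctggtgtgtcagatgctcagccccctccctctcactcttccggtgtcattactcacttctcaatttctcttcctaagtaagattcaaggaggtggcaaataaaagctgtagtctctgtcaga
Batf3, chr1:191098164-191098463, plus strand: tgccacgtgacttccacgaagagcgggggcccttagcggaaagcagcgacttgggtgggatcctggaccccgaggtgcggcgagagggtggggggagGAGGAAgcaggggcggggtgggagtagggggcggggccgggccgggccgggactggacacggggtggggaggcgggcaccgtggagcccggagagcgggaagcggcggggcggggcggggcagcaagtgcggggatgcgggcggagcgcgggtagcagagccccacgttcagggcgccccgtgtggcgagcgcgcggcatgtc

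The Batf3 window held 1 match to GAGGAA, at base -153 from the start, a pattern found in 28.3% of 32851 windows, and the Cd209a window held no match to either pattern. Of the other members' windows, that of Siglech also held 1 match to GAGGAA. The AP-1 pattern, found in 7.8% of windows, was present once each for Itgax and Zbtb46. Such matches describe letters only.

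Of the treatment comparisons, the one at 24 h gave calls. Irf8, Itgax, Clec10a and Batf3 were higher in OA mice than in serum mice at 24 h, by 1.44 (SE 0.45, adjusted p = 0.0274), 1.40 (SE 0.48, adjusted p = 0.0343), 2.33 (SE 0.66, adjusted p = 0.022) and 2.11 (SE 0.63, adjusted p = 0.0247) on the log2 scale, by limma with Benjamini-Hochberg adjustment. These are 4 of 8 members. At the same threshold 15.6% of the 25167 genes tested rose and 7921 genes were called in either direction. None of the 4 passed without serum replicate 1, the array furthest from the others, and the number of genes called was then 39. None passed without OA replicate 1 either, with differences of 1.54, 1.59, 2.25 and 2.04 in the same order of genes (adjusted p = 0.0617 to 0.0656 by limma) and 171 genes called. Without OA replicate 2 (3604 genes) Clec10a alone of the 4 passed, and without OA replicate 3 (4398 genes) Clec10a and Batf3 did. The adjusted p of Itgax was also above the threshold with median scaling, quantile normalization and the authors' deposited values (0.0552 to 0.0806 by limma). With only the 24 h arrays in the fit, Irf8, Itgax and Batf3 did not pass (0.071 to 0.164 by limma).

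Irf8, a transcription factor needed by type 1 and plasmacytoid dendritic cells, was 5.02, 5.35 and 5.26 in OA mice at 24 h, against 2.89 and 4.65 in serum mice. Itgax was 2.65, 3.28 and 3.16 in OA mice, against 0.86 and 2.40 in serum mice. In both, the groups did not overlap, and serum replicate 1 was the lowest. Without that array Irf8 differed by 0.56 (adjusted p = 0.695) and Itgax by 0.63 (adjusted p = 0.698), by limma. Without serum replicate 2 instead, the differences were 2.32 and 2.17.

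Clec10a was -0.07, -0.33 and -0.29 in OA mice at 24 h, against -3.58 and -1.54 in serum mice, where both arrays were not well above background. The mean of the OA arrays was therefore at least 3.74-fold above that of the serum arrays, with the groups apart. The nearest arrays were -0.33 (OA) and -1.54 (serum). Batf3 was 0.35, 0.22 and 0.09 in OA mice, against -2.97 and -0.81 in serum mice, of which replicate 1 was not well above background. Without that replicate the differences were 1.31 for Clec10a (adjusted p = 0.591) and 1.03 for Batf3 (adjusted p = 0.64), by limma.

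The other 4 measured members did not pass at 24 h. Flt3 was 0.61, -0.41 and -0.26 in OA mice and -1.56 and -0.07 in serum mice (0.79, SE 0.44, adjusted p = 0.151), and the groups overlapped. Cd209a differed by 0.51 (SE 0.66, adjusted p = 0.552), also with overlap. Zbtb46 was 1.83, 1.51 and 1.99 in OA mice and 3.81 and 2.28 in serum mice (-1.27, SE 0.82, adjusted p = 0.221), and it was the only measured member whose OA arrays all lay below the serum arrays. The repeat-bearing Siglech probe was 8.15, 7.54 and 7.65 in OA mice and 6.29 and 7.29 in serum mice (0.99, SE 0.49, adjusted p = 0.116). In all, 5 of 8 members had every OA array above every serum array at 24 h, as did 27.5% of 25068 genes, and 1 of 8 had every OA array below, as did 28.8%. Siglech is among the 5 through its repeat-bearing probe, and the groups overlapped with the Siglech probe A_55_P2165790.

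**Figure D3:**
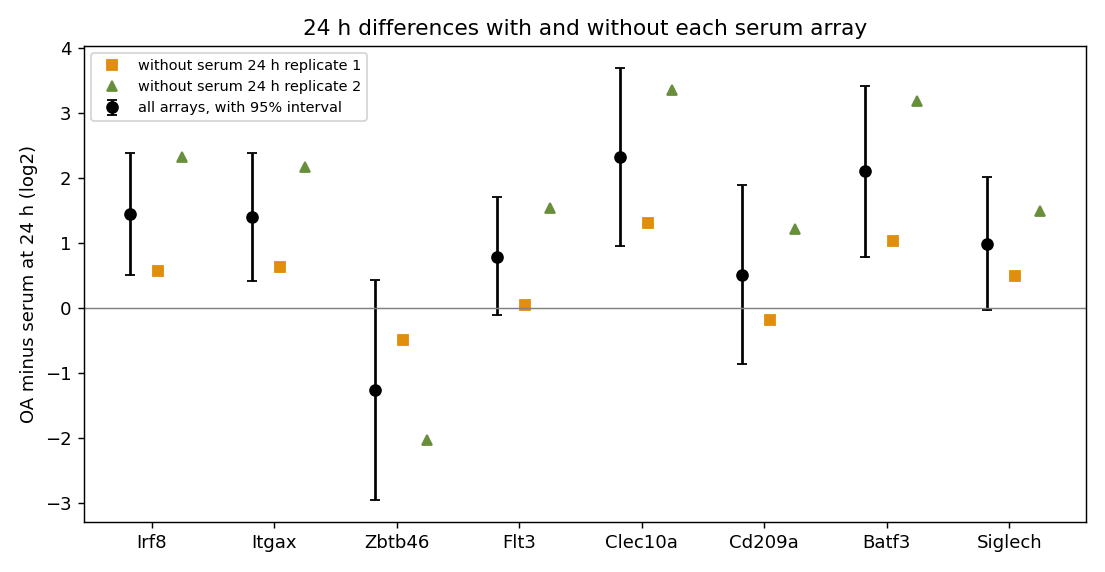
OA minus serum at 24 h (vertical axis, log2) for 8 genes (horizontal axis), with 95% intervals for all arrays as circles, and the values without serum replicate 1 (squares) and without serum replicate 2 (triangles). Every square lies nearer to 0 than its circle, and Cd209a changes sign (0.51 with all arrays, -0.19 without replicate 1).

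Markers of some other cells moved in the same direction at 24 h. Of classical monocyte genes 5 of 9 measured were higher in OA mice, with mean list levels of 2.93 to 3.21 on OA arrays and 0.74 to 2.10 on serum arrays, and so were 5 of 10 genes of patrolling monocytes and 5 of 10 B cell genes (4.2 to 4.51 on OA arrays, 2.40 to 3.97 on serum arrays). None of 10 T cell and none of 10 natural killer cell genes passed. Their mean list levels were nevertheless higher on OA arrays (4.94 and 3.3) than on serum arrays (4.33 and 2.45). The arrays of the groups overlapped for both lists. The mean list levels of neutrophil and erythroid genes were lower on OA arrays (4.23 and 6.56) than on serum arrays (4.35 and 7.02). Genes of leukocytes in general averaged 7.02 on OA arrays and 6.19 on serum arrays, where they ran from 5.46 to 6.92. The intergenic signal was -6.24, -6.03 and -5.47 on the OA arrays and -3.48 and -4.77 on the serum arrays. No slide held both groups at 24 h. With the slide as a fixed block, the differences were 1.05 for Irf8, 1.28 for Itgax, 1.93 for Clec10a and 1.99 for Batf3 (adjusted p = 0.18 to 0.25 by limma). The part of these cells and of the slide in the 24 h differences was not tested beyond these values.

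Further dendritic cell genes at 24 h were called with the same array in the fit. Among type 1 genes Naaa (1.76, adjusted p = 0.0177) and Wdfy4 (1.48, adjusted p = 0.0319) were higher in OA mice with Irf8 and Batf3, and Cadm1 was lower (-3.32, adjusted p = 0.0431). Among 9 type 2 genes Irf4 (1.37, adjusted p = 0.0497) and Sirpa (2.09, adjusted p = 0.0186) were higher with Clec10a. Mean list levels on OA against serum arrays were 2.03 against 1.9 for the general conventional genes. They were 0.07 against -0.42 for type 1 genes and 1.83 against 1.15 for type 2 genes. Over all genes, 15.6% were higher and 15.9% lower at this time. Among 16 plasmacytoid genes Tcf4 (1.77, adjusted p = 0.018), Spib (1.84, adjusted p = 0.0209) and Atp1b1 (1.18, adjusted p = 0.048) were higher and Tlr7 was lower (-1.31, adjusted p = 0.0312). Of 9 MHC class II genes H2-Ab1 (1.53), H2-Eb1 (1.49) and H2-DMb1 (1.43) were higher, and the list's median difference was 0.98 against 0.05 over all genes, all by limma.

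Before 24 h no member passed the threshold in any treatment comparison, and at 1, 1.5, 3, 4 and 18 h the share of all genes called was 0%. At an unadjusted p below 0.05, 0 of 8 members and 5.12% of genes differed at 1 h, and 0 of 8 and 1% at 18 h. At 1.5 h 1 of 8 did (Zbtb46) against 10.1% of genes, at 3 h 2 of 8 (Clec10a and Cd209a) against 7.77%, and at 4 h 1 of 8 (Clec10a) against 10.5%. At 3 h 3 of 8 members, Irf8, Itgax and Cd209a, had every OA array above every serum array, as did 17.7% of genes. At 4 h, against the single serum array, both OA arrays were lower for 5 of 8 members, Irf8, Itgax, Clec10a, Flt3 and Batf3, as for 41% of genes, and higher for Zbtb46 and Cd209a, as for 31%. At 1.5 h Zbtb46 had every OA array below, as did 7.02% of genes, and at 18 h Batf3 had every OA array above, as did 2.67%. Averaged over the 6 times no member passed (0.00398% of genes did). The next day minus the first 4 times gave no member in OA mice (0.155% of genes), none in serum mice (0.147%) and none for the change of the OA effect (0%). In simulated data of the same size, the 24 h comparison recovered 33.3% of 60 genes changed by 2 on the log2 scale. It recovered 64.5% of 62 genes changed by 3. In the measured 24 h comparison 7921 genes were called, so the simulated shares need not hold there. Recovery was not computed for the treatment comparisons before 24 h. Whether changes of this size went uncalled at those times was not tested.

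Irf8 at the earlier times was 5.07, 5.54 and 5.51 in OA mice and 4.71, 5.08 and 5.50 in serum mice at 1 h, with overlap. It was 4.95, 5.62 and 5.13 in OA mice and 5.00, 4.79 and 4.44 in serum mice at 1.5 h, and 4.75, 4.70 and 5.32 in OA mice and 4.61 and 4.00 in serum mice at 3 h. At 4 h it was 4.54 and 3.03 in OA mice and 5.05 in the serum mouse, and at 18 h 5.25, 5.28 and 4.88 in OA mice and 4.93 and 5.10 in serum mice. Its lowest arrays were therefore serum replicate 1 at 24 h (2.89) and OA replicate 2 at 4 h (3.03), both among the 3 that stood apart. In 10 of 11 steps the ordered group means differed by less than the larger SD.

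Irf8 moved with the intergenic signal over the 30 arrays, with Pearson's r = -0.89 and Spearman's rho = -0.80. Both had a permutation p of 1e-05, the smallest that 100000 resamples can give, and adjusted values of 3e-05 and 4.5e-05 over 9 probes compared. Arrays were permuted without regard to group or slide, so the permutation p ignores what arrays of a group share. The share of all genes with so strong a correlation was not computed. Without the 2 arrays farthest from the median r was -0.73, and within the 2 slides of 8 arrays it was -0.91 and -0.94. Itgax (r = -0.79, rho = -0.62) and Flt3 (r = -0.75, rho = -0.57) ran the same way, with permutation p for r of 1e-05 and adjusted values of 3e-05, and r = -0.55 and -0.54 without the 2 farthest arrays. With the intergenic signal as a covariate, the 24 h difference of Irf8 was 0.03 and that of Itgax 0.24. What the intergenic signal stands for in these preparations was not tested. The genes most like Irf8 over the arrays were Prcp (r = 0.96), Ddx58 (0.959, an RNA sensor of the interferon pathway) and Ly86 (0.95, a partner of a B cell surface receptor). For Itgax they were Zfp943 (0.915), Htra2 (0.907) and Haus8 (0.904), and for Flt3 Pisd-ps1 (0.862), Diablo (0.862) and P2rx4 (0.86).

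Clec10a (r = -0.55, rho = -0.48, adjusted permutation p = 0.00283 for r) and Batf3 (r = -0.60, rho = -0.42, adjusted permutation p = 0.00176 for r) correlated less with it, with r = -0.37 and -0.24 without the 2 farthest arrays. Cd209a had r = -0.21 and rho = -0.16, with permutation p = 0.268 and 0.399. With the intergenic signal as a covariate the 24 h differences were 1.27 for Clec10a and 0.9 for Batf3 (adjusted p = 1 for both by limma), and Batf3 differed by -1.38 at 3 and 4 h against the first 2 times (adjusted p = 0.0232 by limma).

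**Figure D4:**
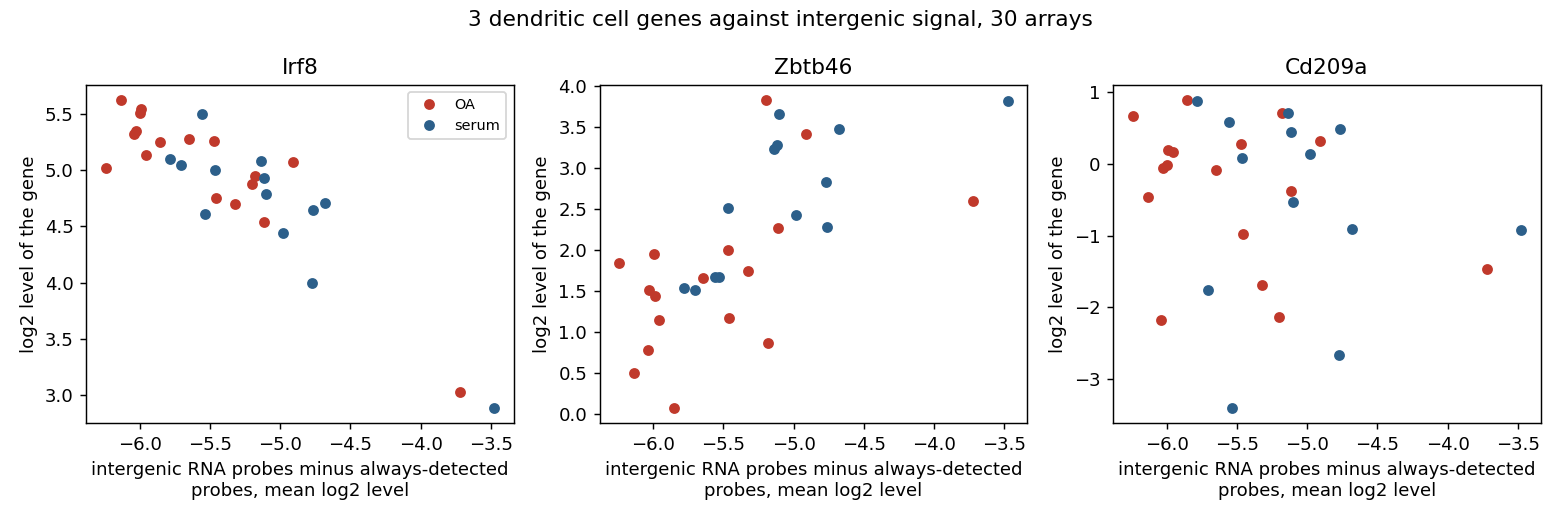
Log2 level of Irf8, Zbtb46 and Cd209a (vertical axes) against the intergenic signal (horizontal axes, mean log2 level of intergenic RNA probes minus that of probes detected on all arrays) on 30 arrays, coloured by treatment. Irf8 falls along the axis (r = -0.89), Zbtb46 rises (r = 0.68) and Cd209a shows a weak relation (r = -0.21).

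Itgax at the earlier times ran from 0.83 (OA replicate 2 at 4 h) to 3.23 (OA replicate 2 at 18 h). At 3 h it was 2.64, 2.54 and 2.90 in OA mice and 2.05 and 1.91 in serum mice, and these groups did not overlap (0.72, SE 0.48, adjusted p = 0.691 by limma). In all 11 steps neighbouring group means differed by less than the larger SD. Flt3 lay between -1.56 and 0.61 over all arrays, with its highest group mean in OA mice at 1 h (0.19 ± 0.37, SD, n = 3) and its lowest in OA mice at 4 h (-1.23 ± 0.41, SD, n = 2). In 10 of 11 steps neighbours differed by less than the larger SD.

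Zbtb46 was measured by a probe that ran against the other members. At 1 h it was 3.41, 1.43 and 1.95 in OA mice and 3.47, 3.23 and 1.66 in serum mice. At 1.5 h it was 0.86, 0.49 and 1.14 in OA mice, against 2.51, 3.65 and 2.42 in serum mice, and the groups did not overlap (-2.03, SE 0.73, unadjusted p = 0.011, adjusted p = 0.47 by limma). Slides 3 and 4 each held 1 array of both groups at 1.5 h, and within them the difference was -3.16 and -1.28. At 3 h it was 1.17, 1.74 and 0.78 in OA mice and 1.67 and 2.82 in serum mice, at 4 h 2.26 and 2.59 in OA mice and 1.51 in the serum mouse, and at 18 h 0.07, 1.65 and 3.82 in OA mice and 3.27 and 1.53 in serum mice. Both the lowest and the highest array of all, 0.07 and 3.82, were OA mice at 18 h.

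Averaged over the 6 times the Zbtb46 difference was -0.74 (SE 0.34, unadjusted p = 0.0417, adjusted p = 0.331 by limma). It correlated at r = 0.68 and rho = 0.75 with the intergenic signal (permutation p = 5e-05 and 1e-05, adjusted 0.000112 and 4.5e-05), at r = 0.70 without the 2 farthest arrays and at 0.74 and 0.59 within the 2 slides of 8 arrays. With the other members it correlated at r = -0.49 (Irf8) to -0.13 (Cd209a). Over the 30 arrays the genes most like it were Serping1 (r = 0.982, an inhibitor of the complement cascade), Tas1r3 (0.979, a taste receptor subunit) and Otop1 (0.974, a proton channel of sour-sensing cells), none of which is a dendritic cell marker. The second Zbtb46 probe, further along the same transcript, stayed near background on all 30 arrays and correlated with the first at r = 0.57.

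Siglech was read by probes that did not move together. The probe with the repeat correlated at r = 0.16 with A_55_P2165790 and at 0.08 with A_55_P2141008, over 30 arrays. It lay between 6.29 and 8.44, with its highest group mean in serum mice at 1 h (8.02 ± 0.46, SD, n = 3) and its lowest in serum mice at 24 h (6.79 ± 0.71, SD, n = 2), and in all 11 steps neighbours differed by less than the larger SD. Its nearest genes were Rab3c (r = 0.948), Dnase2a (0.927) and Mettl7a2 (0.924). This probe stood for Siglech among the genes tested, because it had the highest mean of the kept Siglech probes.

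**Figure D5:**
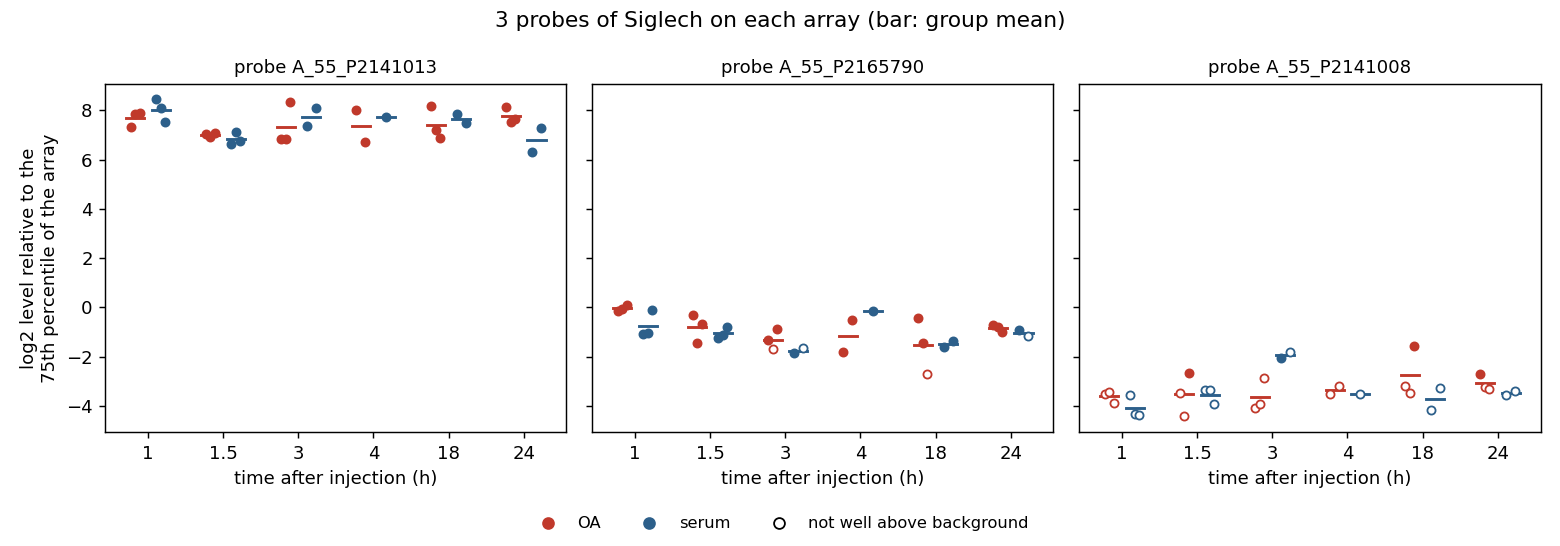
Log2 level of the 3 Siglech probes on each array (vertical axis, relative to the 75th percentile of the array) at each time after injection (horizontal axis, h), with OA to the left of serum and a bar at each group mean. The probe with the repeat (left) is above background on all 30 arrays, A_55_P2165790 (middle) on 26 and A_55_P2141008 (right) on 4.

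The probe A_55_P2165790, with no marked repeat in its printed stretch, was -0.14, -0.08 and 0.08 in OA mice and -1.10, -1.04 and -0.11 in serum mice at 1 h, with overlap. At 3 h it was -1.32, -1.71 and -0.89 in OA mice and -1.86 and -1.65 in serum mice. At 24 h it was -0.72, -0.79 and -1.01 in OA mice and -0.92 and -1.17 in serum mice, a difference of 0.20 (SE 0.50, 95% interval -0.84 to 1.24, adjusted p = 0.767 by limma over probes). The 3 and 4 h arrays differed from the first 2 times by -0.42 (SE 0.26, adjusted p = 0.581). Its correlation with the intergenic signal was r = -0.13, and its highest and lowest group means were OA at 1 h (-0.05 ± 0.11, SD, n = 3) and serum at 3 h (-1.75 ± 0.15, SD, n = 2). Neither Siglech probe gave a change that passed the threshold with the settings used throughout. The repeat-bearing probe passed at 24 h with normexp background correction (1.48, adjusted p = 0.0289 by limma) and without serum replicate 2 (1.49, adjusted p = 0.0439 by limma).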

How the data were processed

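Total RNA of blood mononuclear cells from 30 mice was measured on 30 Agilent mouse arrays of 62976 spots in mm9 coordinates. The deposited scanner intensity values were read with Feature Extraction 10.5.1.1, per the submitters' processing notes and the file headers, and the processed signal already had the background of its own array removed, per the file headers. The authors' own deposited values, on what behaves as a log2 scale when set against the scanner files, served as an alternative. Their column medians, with a scaling not given in the sources used here, were 5.354 to 5.356.

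Outlier-marked spots and the 3671 control spots were dropped, and saturation was marked on no spot. The log2 processed signal minus the 75th percentile of each array was used. Probes well above background on fewer than 3 arrays were dropped (35800 of 55681 stayed), and the kept probe of highest mean stood for a gene (25167 features). Names came from the RefSeq tables of GRCm38.p6 by accession or symbol, and otherwise from the files. The members were found by GeneName, and all 15 probes were single spots. Where a whole group lay too near background for a probe, the fold between group means is a bound, printed as "at least". For it, dimmer values of that group were raised to the lowest level well above background on their array.

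A linear model with 12 treatment-by-time groups was fitted over the 30 arrays (limma 3.58.1, R 4.3.3; 18 residual degrees of freedom, prior degrees of freedom 3.97), two-sided, with Benjamini-Hochberg adjustment over all features of a comparison and a threshold of 0.05. The 4 h serum group has 1 array, assumed to vary like the others. The members and all gene lists were chosen with earlier results of these data known, and the comparisons between times over both treatments were added after the values had been seen. Named genes beyond the members are list genes past the threshold and, for each member above background on at least 15 arrays, the 3 genes of highest correlation. Permutation tests used 100000 resamples in Python with numpy and scipy, without regard to group or slide. The model was tested on simulated data with 200 changed genes: of genes changed by 1, 2 and 3 on the log2 scale, 0%, 33.3% and 64.5% were recovered at 24 h, and 27.5%, 83.6% and 98.4% for 3 and 4 h against 1 and 1.5 h. The number of arrays limits the precision. Alternatives covered background correction, scaling, the filter on dim probes, slide, replicate number, the deposited table, the intergenic signal and each array in turn.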

Additional observations from a re-analysis of the deposited data

Results flagged for a closer look

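Batf3 was flagged in a search over all measured members and pairs of times. Every OA array lay below every serum array at 1 h, and above every serum array at 1.5, 18 and 24 h. The nearest OA and serum arrays were -0.22 and -0.19 at 1 h and -0.12 and -0.15 at 1.5 h. At 18 h they were -0.48 and -0.54. These gaps are small beside the SEs of the differences (0.57, 0.57 and 0.63). The shares of all genes that lay so were 8.21% in the 1 h comparison, 18.5% in the 1.5 h one, 2.67% in the 18 h one and 27.5% in the 24 h one. At 4 h both OA arrays (-1.48 and -3.51) also lay below the single serum array (-1.38), as for 41% of genes. The OA minus serum difference at 1.5 h, 18 h and 24 h exceeded that at 1 h by 1.1, 1.06 and 2.68 on the log2 scale, from differences of 0.53, 0.49, 2.11 and, at 1 h, -0.57. Without serum replicate 1 at 24 h the difference there was 1.03, and it exceeded that at 1 h by 1.6. These contrasts between times were not tested, and none of the 3 earlier differences passed the threshold.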

How the results depend on the processing

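Of the comparisons of single members, 4114 of the alternative values kept their direction or stayed on their side of the threshold, 54 calls were lost and 32 appeared, and no called value changed sign. The number of genes called at 24 h (7921) was 11978 without the filter on dim probes, 4825 with a filter at 15 arrays, 4837 with the authors' deposited values, 3250 with only the 2 groups compared, 7 with the slide as a fixed block, 2 with the intergenic signal as a covariate and 54 without the 3 arrays that stood apart. Leaving out 1 array gave 39 (serum replicate 1) to 13013 genes (serum replicate 2). Without serum replicate 1, the slide block as well gave 10 and median scaling as well gave 38.

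At 4 h, where 0 genes passed, quantile normalization gave 4, the authors' deposited values 12 and the slide block 3, and leaving out 1 array gave 0 to 1. Leaving out 1 array gave 0 to 1 at 1.5 h, 0 to 3 at 3 h and 0 to 5 at 18 h. For the mean of the 6 times (1 gene), normexp and no filter gave 2 each, the authors' deposited values 7 and leaving out 1 array 0 to 9. For the next day minus the first hours in OA mice (39), median scaling gave 151, the authors' deposited values 144, the slide block 14, the intergenic covariate 94 and leaving out 1 array 8 to 158. For serum mice (37), normexp gave 12, median scaling 122, quantile normalization 138, no filter 9, the filter at 15 arrays 73, the authors' deposited values 276, the slide block 18, the omission of the 3 arrays 5 and leaving out 1 array 1 to 2277, the highest without serum replicate 2 at 24 h. For the change of the OA effect (0), quantile normalization gave 4, the authors' deposited values 6, the intergenic covariate 1 and leaving out 1 array 0 to 1791.

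At 3 and 4 h against 1 and 1.5 h (60), normexp gave 22, median scaling 583, quantile normalization 258, no filter 32, the filter at 15 arrays 101, the authors' deposited values 594, the intergenic covariate 683, the omission of the 3 arrays 19 and leaving out 1 array 3 to 228. At 18 and 24 h against 3 and 4 h (201), normexp gave 120, median scaling 850, quantile normalization 397, the authors' deposited values 731, the intergenic covariate 741, the omission of the 3 arrays 311 and leaving out 1 array 79 to 502. The causes were not tested. Scaling to the median of always-detected probes moved the median of all genes by -0.61 at 24 h and 0.57 at 4 h.

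Deviations of same-numbered OA and serum arrays from their group means correlated at -0.536 to 0.419 (12 pairs, 4 above 0.1). With so few arrays per group this cannot settle whether the numbers pair the samples, and the main model left them unpaired. With the replicate number as a block within each time, 2764 genes were called at 24 h and 0 for the mean of the 6 times, and Irf8, Itgax, Clec10a and Batf3 did not pass at 24 h (adjusted p = 0.0507 to 0.0619 by limma). With a block over all times, 2 were called for that mean, 24 for serum mice on the next day and 8 at 3 and 4 h, and Itgax at 24 h (0.0556) and Clec10a and Cd209a at 3 and 4 h (0.0807 and 0.0595) did not pass. An alternative with array weights could not be run, because its estimate did not converge. Comparisons that need the single serum array at 4 h have no value without it.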
